A study of Mus musculus with 8 samples.

Results

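The proteasome genes of the mouse were taken as the protein-coding genes whose symbol begins with Psm, a letter from a to g and a digit, which gave 51 genes of the 22430 in the count table. All 51 were expressed above the count filter and stood among the 16730 genes tested. They were sorted by role into 7 alpha and 7 beta subunits of the 20S core, 3 immunoproteasome subunits, 2 tissue-restricted core subunits, 6 ATPases and 11 non-ATPase subunits of the 19S particle, 5 activators or inhibitors, 4 chaperones of the 20S and 3 of the 19S base. The remaining 3 were Psmc3ip and Psme3ip1, which share only the name, and Psme2b, a near copy of Psme2.

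The brain was compared between 2 ages of male C57Bl/6JRj mice, 6 months old (6m, young adult) and 24 months old (24m, aged), with 4 separate animals per age and no treatment or altered allele named for either. The labels call the tissue both whole brain and brain hemisphere, and the RNA was polyadenylated RNA made into directional libraries. Library totals were 63460940 to 103462414 counts, 24m replicate 1 being the deepest. Values per library are counts per 1e+06 of library size after TMM scaling (CPM). Log2 fold changes are 24m against 6m with their standard error (SE) from edgeR, n = 4 per age throughout. Called lower or higher means an adjusted p no larger than 0.05 together with a change beyond 0.58 on the log2 scale. The whole tissue was measured, so fewer cells of a type and less RNA per cell cannot be told apart in any of these values. Neuron markers summed to 3287 to 3404 CPM at 6m and 3349 to 3584 at 24m over 6 genes that moved in both directions (2 lower and 2 higher by adjusted p, near the shares of tested genes, 29.9% and 32.7%, among them Tubb3 at -0.63 and Syt1 at 1.55), whereas astrocyte markers summed to 676 to 804 CPM at 6m and 979 to 1174 at 24m (4 of 6 called higher and 1 lower, against 25.3% and 18.3% of tested genes).

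The proteasome is the large protease that degrades proteins tagged with ubiquitin in the cytosol and nucleus. Its barrel, the 20S core, is built from stacked rings of alpha and beta subunits with the proteolytic sites on beta subunits inside, and the 19S particle at its ends recognises, deubiquitinates, unfolds and feeds in the substrate. Interferon induces alternative catalytic subunits that form the immunoproteasome, which favours peptides for antigen presentation. In neurons, protein turnover by the proteasome contributes to synaptic plasticity, and its subunits are known to be controlled as a group by the transcription factor Nfe2l1.

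The promoters of the members were searched, from 250 bases before to 50 bases after the canonical start of transcription, for short motifs of factors tied to these genes, on both strands. The core of the antioxidant response element, to which Nfe2l1 and Nfe2l2 bind with small Maf partners, was spelled TGACNNNGC. It was found in 8 of 51 members (15.7%) and in 13.3% of the 16573 promoters of tested protein-coding genes. Windows of 25 bases around it are shown for the 20S subunits that hold it, with the motif in capitals, because 2 of them are catalytic and all 3 were lower at 24m. The sequences are from GRCm39, 5′ to 3′ on the strand named.
Psmb2, chr4:126571414-126571438, + strand: cgcgccagTGACTGGGCcgtcgcgc
Psmb5, chr14:54855483-54855507, - strand: tgaagttgTGACGTCGCggcgttgc
Psmb6, chr11:70416166-70416190, + strand: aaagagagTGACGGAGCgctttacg

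The core of the binding site of ETS factors, spelled CCGGAAG, was found in 17 of 51 members (33.3%) against 12.8% of all those promoters. The 23 bases around it are shown for 4 of the 19S ATPases and for Psmd11, a subunit that moved the other way, again with the motif in capitals.
Psmc1, chr12:100076425-100076447, - strand: cgccaccgCCGGAAGtgcatcca
Psmc2, chr5:21990181-21990203, - strand: gccccatcCCGGAAGtgctcact
Psmc3, chr2:90884299-90884321, - strand: ctgcacaaCCGGAAGaggcggga
Psmc6, chr14:45567173-45567195, + strand: cgggccagCCGGAAGgggcggag
Psmd11, chr11:80319422-80319444, - strand: acacacacCCGGAAGacccgccc
None of these 8 matches overlapped another motif searched. The CCAAT box, spelled CCAAT, stood in 19 members (37.3%) and in 38.9% of all promoters, and an interferon response core, spelled GAAANNGAA, in 8 members (15.7%) and in 8.09%. Members with and without the antioxidant core had median log2 fold changes of -0.57 and -0.51, and members with and without the ETS core of -0.51 and -0.56. For the CCAAT box they were -0.60 and -0.47, and for the interferon core -0.60 and -0.51. A match is a run of letters and was not tested for binding.

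Most of the proteasome was lower in the aged brain. Of the 51 members, 23 were called lower and 0 higher (edgeR), against 18.3% of all tested genes called lower and 25.3% called higher. DESeq2 and limma-voom gave the same 2 counts, and 3 members were higher at an unadjusted p under 0.05. By adjusted p alone 41 members were lower and 3 higher, where all tested genes gave 29.9% and 32.7%. The median log2 fold change of the members was -0.54, and that of all tested genes was -0.0034. In 37 members every 24m library lay below every 6m library, which held for 26.8% of tested genes, and in 3 every 24m library lay above (28.4% of tested genes). The ages overlapped in the other 11.

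**Figure D1:**
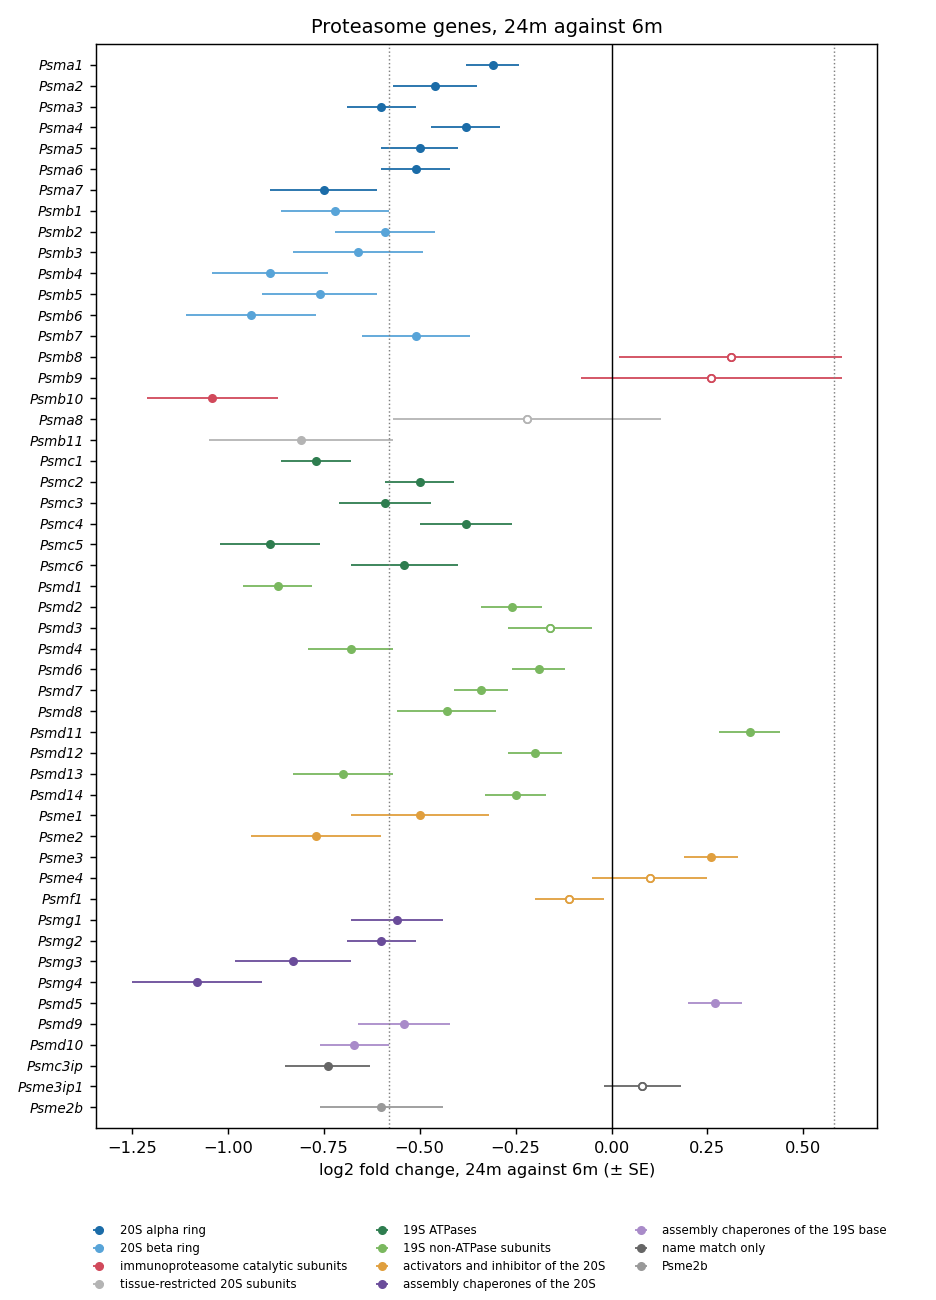
Log2 fold change of each of the 51 members, 24m against 6m (x axis), with bars of 1 SE, grouped by role and coloured by it. Hollow points have an adjusted p above 0.05 and dotted lines mark the fold threshold of 0.58. All 14 constitutive 20S subunits lie left of 0, where 5 of them turned with the canonical length trend removed, and Psmd11, Psme3 and Psmd5 are the filled points to the right of it.

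The size of the fall depended on processing. With library totals alone as scaling, which moved the median of all genes to 0.21, 8 members were called lower (10.4% of tested genes). Fold change rose with transcript length across all tested genes (Spearman rho 0.56 with the length of the canonical transcript, n = 16677) and among the members (0.44, n = 51), as a description across genes that share libraries. With the trend over exonic length removed, 17 members were called lower (17.2% of tested genes). With the trend over canonical transcript length removed, a setting chosen after the data were seen, 8 members were called lower and 2 higher, where 14.5% and 18.1% of tested genes were. The members' share called lower was then close to that of all genes tested, and 18 members changed sign, among them Psma1, Psma5, Psma6, Psmb3 and Psmb7 of the core. Of the 23 calls 6 were kept in that setting (Psma3, Psmb1, Psmb2, Psmb11, Psmc1 and Psmd1) and 17 were lost, and Psma2 and Psme1 were called in addition. Among genes with a canonical transcript under 2000 bases the median was -0.57 over all 3996 and -0.60 over the 30 members. Among longer ones it was 0.21 over all 12681 and -0.46 over the 21 members.

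**Figure D2:**
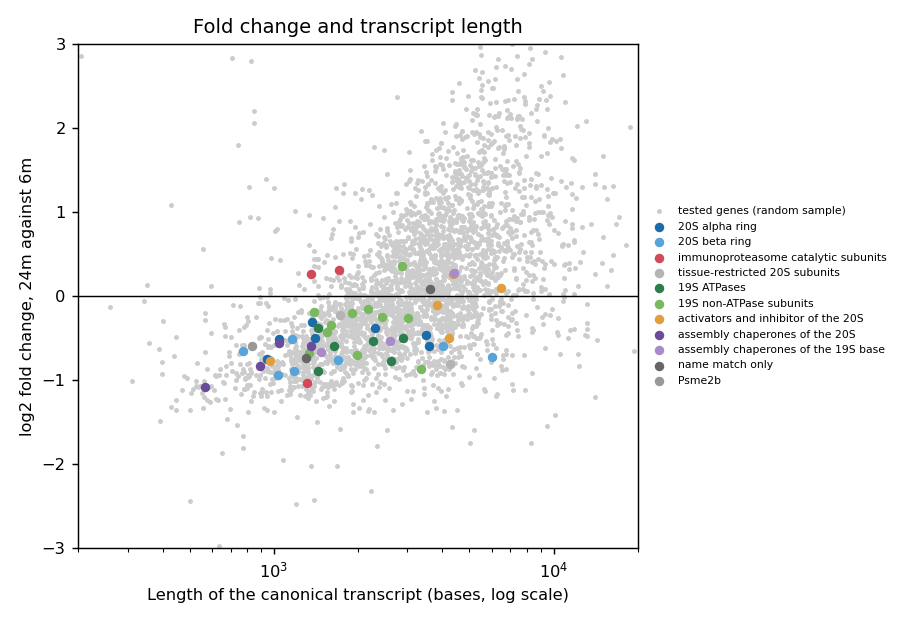
Log2 fold change, 24m against 6m, against the length of the canonical transcript in bases (log axis) for the members, coloured by role, over a random sample of 3000 tested genes in grey. A few grey points lie outside the axes. Members under 2000 bases sit within the grey cloud, and those of 2000 bases or more lie mostly in its lower part, their median being -0.46.

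The constitutive 20S core was lower with TMM scaling and no length correction. All 14 constitutive subunits were lower by adjusted p and 8 were called lower, where 29.9% and 18.3% of tested genes were. In all 14 every 24m library lay below every 6m library, as in 26.8% of tested genes. Their summed level was 3398, 3146, 3049 and 3332 CPM in 6m replicates 1 to 4 and 2600, 1870, 1884 and 1679 CPM in 24m replicates 1 to 4. The outer alpha ring, whose tails gate the entry of substrate, had a median log2 fold change of -0.50 (-0.75 to -0.31, 2 of 7 called lower). The inner beta ring, which carries the active sites, had one of -0.72 (-0.94 to -0.51, 6 of 7 called lower). With the canonical length trend removed 4 of the 14 were called lower (14.5% of tested genes) and 5 turned. With the exonic length trend removed Psma5 (-0.00, edgeR adjusted p = 0.977) and Psma6 (-0.09, 0.280) no longer passed, and with library totals alone Psma1 (-0.09, 0.339) and Psma4 (-0.16, 0.183) did not. The difference between the rings was not tested.

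Psma7, an alpha subunit, had the lowest log2 fold change of its ring, but came to -0.02 (edgeR adjusted p = 0.830) with the canonical length trend removed, where Psma3 (-0.79) and Psma2 (-0.63) were lowest. It measured 282, 247, 251 and 263 CPM at 6m and 205, 144, 146 and 127 CPM at 24m. The ages did not overlap, and 24m replicate 1 was nearest to the young brains (log2 fold change -0.75 ± 0.14, edgeR adjusted p = 0.00138). Psma1 moved least, with 81.4, 85.1, 81.0 and 81.7 CPM at 6m and 65.5, 67.2, 63.7 and 69.6 CPM at 24m. The 24m libraries were again all lower and close to each other (-0.31 ± 0.07, edgeR adjusted p = 0.00336), but the value was 0.26 with the canonical length trend removed. Of the other alpha subunits, Psma3 was called lower (-0.60), and Psma2, Psma4, Psma5 and Psma6 fell by less than the threshold (-0.46, -0.38, -0.50 and -0.51).

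The 3 constitutive catalytic subunits all fell. Psmb6, which carries the caspase-like site, measured 431, 377, 372 and 417 CPM at 6m and 295, 189, 192 and 157 CPM at 24m. It had the lowest log2 fold change of the constitutive core (-0.94 ± 0.17, edgeR adjusted p = 0.00135), a place and a call lost with the exonic (-0.53, Psmb1 -1.05) or canonical (-0.26, Psmb1 -1.28) length trend removed, and 24m replicate 1 stood well above the other aged libraries. Psmb5, which carries the chymotrypsin-like site, measured 374, 342, 339.7 and 371 CPM at 6m and 280.2, 199, 198 and 165 CPM at 24m. Its ages were separate, with the same aged library highest (-0.76 ± 0.15, edgeR adjusted p = 0.00165), and its call was lost with the exonic (-0.24) or canonical (-0.36) length trend removed. Psmb7, which carries the trypsin-like site, measured 346, 345, 325 and 339.9 CPM at 6m and 315, 211, 226 and 199.5 CPM at 24m. Its 24m replicate 1 came close to the lowest young library without reaching it, and the fall missed the fold threshold (-0.51 ± 0.14, edgeR adjusted p = 0.00887) and turned to 0.12 with the canonical length trend removed.

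The non-catalytic beta subunits behaved alike in direction. Psmb4 fell by 0.89 on the log2 scale, Psmb1 by 0.72, Psmb3 by 0.66 and Psmb2 by 0.59, and all 4 were called lower. In 12 of the 14 core subunits 24m replicate 1 lay below all young and above all other aged libraries. That held for 33 of the 51 members (64.7%) and for 19.3% of tested genes. Without that library 28 members were called lower (21.9% of tested genes), and the medians of the alpha and beta rings were -0.57 and -0.88.

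**Figure D3:**
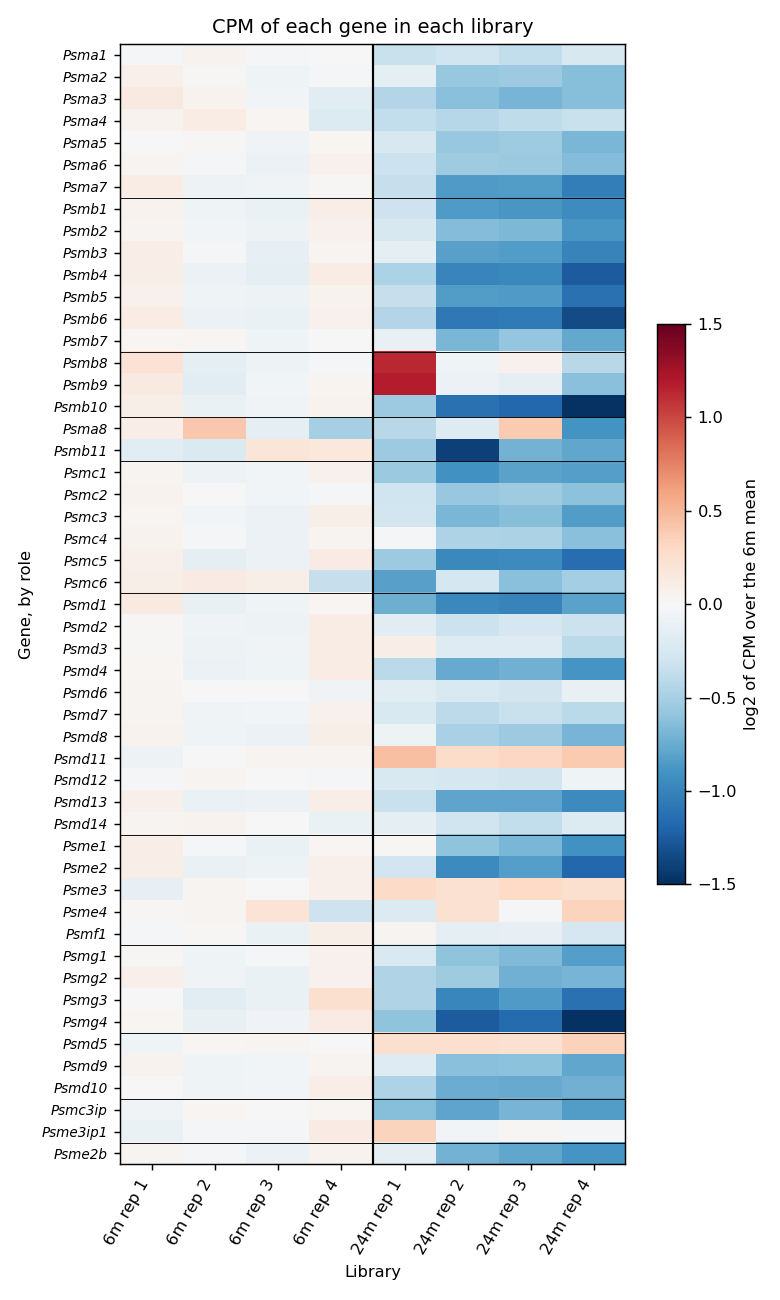
Heat map of the 51 members (rows, by role, lines between roles) in the 8 libraries (columns), coloured by the log2 of CPM over the gene's 6m mean. Of the rows 41 were lower at 24m by adjusted p (bluer) and 3 higher, in 33 the 24m replicate 1 value lies below all young and above all other aged libraries, and Psmb8 and Psmb9 are dark red in that library only.

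The immunoproteasome subunits did not move together. Psmb10, the inducible counterpart of Psmb7, was called lower, whereas Psmb8 and Psmb9, the counterparts of Psmb5 and Psmb6, did not pass the test. The Psmb10 call was lost to the fold threshold with the exonic (-0.51) or canonical (-0.49) length trend removed. Psmb10 measured 156, 136, 141 and 152 CPM at 6m and 100.3, 67.1, 64.8 and 52.2 CPM at 24m. All aged libraries were lower, 24m replicate 4 the furthest (-1.04 ± 0.17, edgeR adjusted p = 0.000790). Per kilobase of canonical transcript, Psmb10 had 111.4 CPM at 6m against 5.50 for Psmb8 and 2.88 for Psmb9, so that it was by far the most abundant of the 3 in the young brain.

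Psmb8 measured 10.9, 8.56, 8.89 and 9.15 CPM at 6m and 20.5, 8.92, 9.79 and 7.03 CPM at 24m. The first aged library held more than any other, 24m replicates 2 and 3 lay within the young range, and 24m replicate 4 lay below it (0.31 ± 0.29, edgeR adjusted p = 0.385). Psmb9 was likewise highest in 24m replicate 1 and lowest in 24m replicate 4, with 4.28, 3.48, 3.80 and 4.01 CPM at 6m and 8.82, 3.67, 3.55 and 2.52 CPM at 24m (0.26 ± 0.34, edgeR adjusted p = 0.526). Without 24m replicate 1 the log2 fold changes turned to -0.12 for Psmb8 (edgeR adjusted p = 0.46) and -0.25 for Psmb9 (adjusted p = 0.17). With all libraries and the canonical length trend removed they were called higher, at 0.68 (edgeR adjusted p = 0.0269) and 0.75 (adjusted p = 0.0259). Psmb8 lies at chr17:34416690-34420428, + strand, and Psmb9 at chr17:34400960-34406738, - strand of GRCm39, where it overlaps Tap1 on the other strand. Since the strand setting of the counting is not given in the sources used here, reads of Psmb9 and Tap1 may not be fully separated.

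The library high in Psmb8 and Psmb9 was also high in other interferon and antigen presentation genes. Of 16 such genes tested, 6 were called higher and 0 lower at 24m, where 25.3% and 18.3% of tested genes were (edgeR, 0 lower also at an unadjusted p under 0.05 and by DESeq2 or limma-voom, median log2 fold change 0.60), and 14 were highest in 24m replicate 1 among the aged libraries, as were 41.0% of tested genes. With the exonic or canonical length trend removed 12 were called higher (medians 0.75 and 0.86), against 21.3% and 18.1% of tested genes. Their summed level was 368 to 435 CPM at 6m and 407 to 507 CPM in 3 of the aged libraries, and it reached 754 CPM in 24m replicate 1. The interferon-induced Ifit3 rose by 0.78 ± 0.13 on the log2 scale. Tap1, a transporter of antigenic peptides, rose by 0.72 ± 0.26, and its ages did not overlap. Microglia markers summed to 699 to 775 CPM at 6m and 660 to 994 CPM at 24m, with 994 in replicate 1. Of the 11 tested 3 were called higher, a share near that of all genes, and 0 lower (edgeR, with 0 lower also at an unadjusted p under 0.05 and by DESeq2, and 1 by DESeq2 after quantile normalization), and none was at 0 in any library. With the canonical length trend removed 5 were called higher (median 0.55), against 18.1% of tested genes. With the exonic one removed 3 were (median 0.35), against 21.3%. Whether interferon signalling or microglia set the levels of Psmb8 and Psmb9 was not tested.

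Within each library the inducible subunit was set against its constitutive counterpart, since the immunoproteasome forms by that exchange and the difference of log2 CPM does not depend on library scaling. Psmb8 minus Psmb5 was -5.10, -5.32, -5.25 and -5.34 at 6m and -3.77, -4.48, -4.34 and -4.54 at 24m. The aged libraries were all higher, by 0.97 on average (exact permutation p = 0.0286, two-sided, the smallest 4 against 4 allows, and 0.0286 after adjustment over the 3 pairs). Psmb9 minus Psmb6 was -6.64, -6.75, -6.60 and -6.69 at 6m and -5.06, -5.68, -5.74 and -5.95 at 24m. It too was higher in every aged library, by 1.07 (exact permutation p = 0.0286). Psmb10 minus Psmb7 went the other way, from -1.15, -1.34, -1.21 and -1.16 at 6m to -1.65, -1.66, -1.80 and -1.93 at 24m. Here all aged libraries were lower, by 0.54 (exact permutation p = 0.0286).

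Without 24m replicate 1 the differences between ages were 0.80, 0.88 and -0.58 (exact permutation p = 0.0286 each, the smallest 3 against 4 allows), so the change in the first 2 pairs did not rest on that library. In these pairs the constitutive subunit fell and the inducible one did not pass a test of its own. With the trend over exonic length removed they were 0.62 and 0.75 for the first 2 pairs (exact permutation p = 0.0286 each), and the change of Psmb10 against Psmb7 turned to 0.13 (exact permutation p = 0.143). With the canonical length trend removed Psmb10 came to -0.49 and Psmb7 to 0.12, so Psmb10 again fell relative to Psmb7. The pairs were not tested in that setting. The exonic lengths of Psmb8 and Psmb5 are 3414 and 1794 bases, and their canonical transcripts 1702 and 1701 bases.

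**Figure D4:**
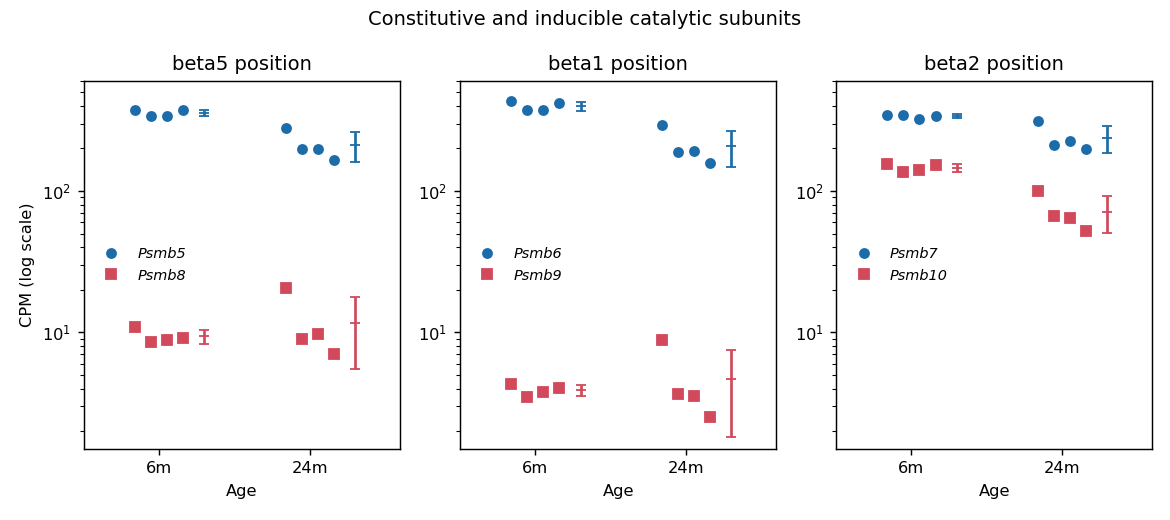
CPM (log axis) of the constitutive (circles) and inducible (squares) subunit of each catalytic position in the 4 libraries of each age, with the mean and SD beside them. The constitutive subunits fall in every panel, Psmb10 falls with Psmb7, and Psmb8 and Psmb9 are high in 24m replicate 1, at 20.5 and 8.82 CPM, and below every young library in 24m replicate 4, at 7.03 and 2.52 CPM.

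The tissue-restricted core subunits were barely detected, with at most 0.448 CPM in any library. Psmb11, the beta subunit of thymic epithelium, measured 0.350, 0.339, 0.448 and 0.439 CPM at 6m and 0.270, 0.150, 0.240 and 0.229 CPM at 24m and was called lower (-0.81 ± 0.24, edgeR adjusted p = 0.0152). Its gene begins next to that of Psmb5 on chromosome 14. Psma8, the alpha subunit of spermatocytes, measured 0.137, 0.170, 0.116 and 0.0908 CPM at 6m and 0.0965, 0.112, 0.168 and 0.0688 CPM at 24m, with overlapping ages (-0.22 ± 0.35, edgeR adjusted p = 0.609).

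The 19S particle was lower as well, with a wider spread over its subunits. Of its 17 subunits 6 were called lower (18.3% of tested genes), and the median log2 fold change was -0.43. By adjusted p 15 were lower and 1 higher, where 29.9% and 32.7% of tested genes were. With the canonical length trend removed 2 were called lower (14.5% of tested genes) and the median was -0.11, and with library totals alone 2 (10.4%) and -0.22. Summed levels were 4266, 3945, 3940 and 4347 CPM at 6m and 3353, 2708, 2749 and 2582 CPM at 24m, without overlap. The log2 CPM of its members relative to their 6m means had an SD over genes of 0.30 to 0.39 within single aged libraries, against 0.11 to 0.32 for the core. The difference was not tested.

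The 6 ATPases, which form the ring that unfolds substrates, were all lower by adjusted p (29.9% of tested genes). Of these 3, Psmc1, Psmc3 and Psmc5, were called lower (18.3% of tested genes), and the median was -0.57. Psmc5 measured 661, 573, 589.5 and 684 CPM at 6m and 430.4, 319.7, 324 and 283 CPM at 24m. It had the lowest log2 fold change of the ATPases, with the ages well apart (-0.89 ± 0.13, edgeR adjusted p = 0.000446), but came to -0.37 with the canonical length trend removed, where Psmc1 was lowest (-0.69). Psmc2 was level with it with the exonic trend removed (-0.68 and -0.67), and Psmc6 below it after quantile normalization (-0.63 and -0.59). Psmc4 changed least and measured 227, 214, 205 and 225 CPM at 6m and 213, 158, 157 and 141 CPM at 24m. Its 24m replicate 1 lay among the young libraries, and the other 3 were below them (-0.38 ± 0.12, edgeR adjusted p = 0.0211), and the value turned to 0.13 with the canonical length trend removed. Psmc1 fell by 0.77, Psmc3 by 0.59, Psmc6 by 0.54 and Psmc2 by 0.50. Psmc6 was the only ATPase whose ages overlapped apart from Psmc4, since 6m replicate 4 was low at 27.1 CPM, where the other young libraries held 36.6 to 37.6 CPM.

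The 11 non-ATPase subunits spanned -0.87 to 0.36, with a median of -0.26 that turned to 0.04 with the canonical length trend removed. Psmd1, a scaffold of the base, measured 315, 266, 274 and 293 CPM at 6m and 172, 147, 143 and 165 CPM at 24m. It fell in every aged library (-0.87 ± 0.09, edgeR adjusted p = 8.09e-05), and stayed called lower with the canonical length trend removed (-1.01). Psmd11, a lid subunit known to limit the assembly of the complete proteasome, measured 36.5, 38.3, 39.5 and 39.4 CPM at 6m and 52.4, 46.6, 47.5 and 50.6 CPM at 24m. It was the only 19S subunit that rose with TMM scaling and no length correction. Its aged libraries all lay above the young ones, although by less than the fold threshold (0.36 ± 0.08, edgeR adjusted p = 0.00273). It no longer passed with the trends over exonic length (0.14, edgeR adjusted p = 0.175), GC content (0.14, 0.275) or both (0.09, 0.450) removed, and was 0.36 with that over canonical length removed, where Psmd6 came to 0.37 and passed as well (edgeR adjusted p = 0.0149). With TMM scaling and no length correction the other lid subunits lay below 0. Psmd13 was called lower (-0.70), and Psmd6, Psmd7, Psmd8, Psmd12 and the deubiquitinase Psmd14 fell by 0.19 to 0.43 and passed the adjusted p, though all of these but Psmd13 and Psmd14 turned with the canonical length trend removed. Psmd3, at -0.16, did not pass (edgeR adjusted p = 0.213). Psmd4, a ubiquitin receptor, was called lower (-0.68, but -0.11 with the canonical length trend removed), and Psmd2, the other large scaffold, fell by 0.26.

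When the 19S subunits were divided into base and lid, a division made after the values were seen, the 9 base subunits had a median of -0.59 (5 called lower) and the 8 lid subunits one of -0.23 (1 called lower), where 18.3% of tested genes were called lower. The small lid subunit Sem1 (-1.25, called lower) and the ubiquitin receptor Adrm1 (-0.50) have symbols outside the pattern and were left out of this division. Summed CPM was 2864 to 3180 at 6m and 1772 to 2314 at 24m for the base, and 1075 to 1167 and 810 to 1040 for the lid. The base stayed below the lid with the trend over exonic length removed (-0.60 and -0.21), with that over canonical length removed (-0.32 and 0.10), with library totals alone (-0.38 and -0.01) and without 24m replicate 1 (-0.71 and -0.27). Base and lid had median canonical transcripts of 2264 and 1948 bases. No test was made of this difference.

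The activators that dock on the core in place of the 19S particle parted by type with TMM scaling and no length correction. Psme2, which with Psme1 forms the interferon-inducible activator, measured 66.1, 57.8, 59.0 and 65.3 CPM at 6m and 50.7, 32.1, 35.0 and 27.4 CPM at 24m. It was called lower, with all aged libraries below the young ones (-0.77 ± 0.17, edgeR adjusted p = 0.00328), but came to -0.06 (edgeR adjusted p = 0.522) with the canonical length trend removed. Psme1 came to -0.50 with overlapping ages (edgeR adjusted p = 0.0294), and was called lower with the canonical length trend removed (-0.81, edgeR adjusted p = 0.00776). Psme2b, the near copy of Psme2, measured 13.9, 13.4, 12.8 and 14.1 CPM at 6m and 12.3, 8.29, 7.90 and 7.31 CPM at 24m (-0.60 ± 0.16, edgeR adjusted p = 0.00971), a profile close to that of Psme2. How reads that match both were assigned is not given in the sources used here, so these 2 genes may not be independent.

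Psme3, the nuclear activator, measured 73.0, 81.7, 79.6 and 84.1 CPM at 6m and 97.0, 93.0, 97.7 and 93.9 CPM at 24m. Every aged library was higher, by a small and even amount (0.26 ± 0.07, edgeR adjusted p = 0.0109). This rise was lost when length was taken out by canonical transcript (-0.09). Psme4, another nuclear activator, and Psmf1, an inhibitor of the core in vitro, came to 0.10 and -0.11 with overlapping ages (edgeR adjusted p = 0.564 and 0.290). With the canonical length trend removed they came to -0.55 and -0.35 (edgeR adjusted p = 0.00107 and 0.0143).

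The chaperones that build the core fell with it. All 4 were lower by adjusted p and 3 were called lower, where 29.9% and 18.3% of tested genes were, and the median was -0.71. With the canonical length trend removed the median was -0.05 and every call was lost, where 14.5% of tested genes were called lower. Psmg4 alone then passed the adjusted p (-0.21, edgeR adjusted p = 0.0431). Psmg4, which with Psmg3 assists the alpha ring, measured 23.5, 21.1, 22.1 and 25.0 CPM at 6m and 15.0, 9.67, 10.3 and 8.21 CPM at 24m. It had the lowest log2 fold change of all 51 members, with the ages far apart (-1.08 ± 0.17, edgeR adjusted p = 0.000612), and the shortest canonical transcript, of 565 bases. That lowest place was lost with the exonic (-0.79, Psmd1 -1.27) or canonical (-0.21, Psmb1 -1.28) length trend removed. Psmg1 measured 33.9, 32.1, 32.7 and 35.1 CPM at 6m and 28.5, 22.1, 21.1 and 18.9 CPM at 24m. It moved least of the 4, without overlap (-0.56 ± 0.12, edgeR adjusted p = 0.00329), and turned to 0.12 with the canonical length trend removed. Its partner Psmg2 fell by 0.60 and Psmg3 by 0.83. With the exonic length trend removed Psmg2 moved least of the 4 (-0.24, its call lost), where Psmg1 came to -0.62.

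The chaperones of the 19S base split. Psmd10, also known as gankyrin, measured 26.8, 25.7, 26.0 and 28.6 CPM at 6m and 19.4, 15.9, 15.8 and 16.3 CPM at 24m. It was called lower, and 24m replicate 1 stood above the other aged libraries (-0.67 ± 0.09, edgeR adjusted p = 0.000346). That call was lost with the exonic (-0.41) or canonical (-0.16, edgeR adjusted p = 0.0980) length trend removed. Psmd5, which binds the ATPase Psmc2 and can hold back assembly of the complete proteasome, measured 34.0, 36.2, 36.4 and 35.4 CPM at 6m and 42.0, 42.2, 41.5 and 45.0 CPM at 24m. All aged libraries were higher (0.27 ± 0.07, edgeR adjusted p = 0.00996), but the direction turned with the trend over length removed (-0.13 for exonic and -0.10 for canonical length). Psmd9 fell by 0.54 and missed the fold threshold.

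**Figure D5:**
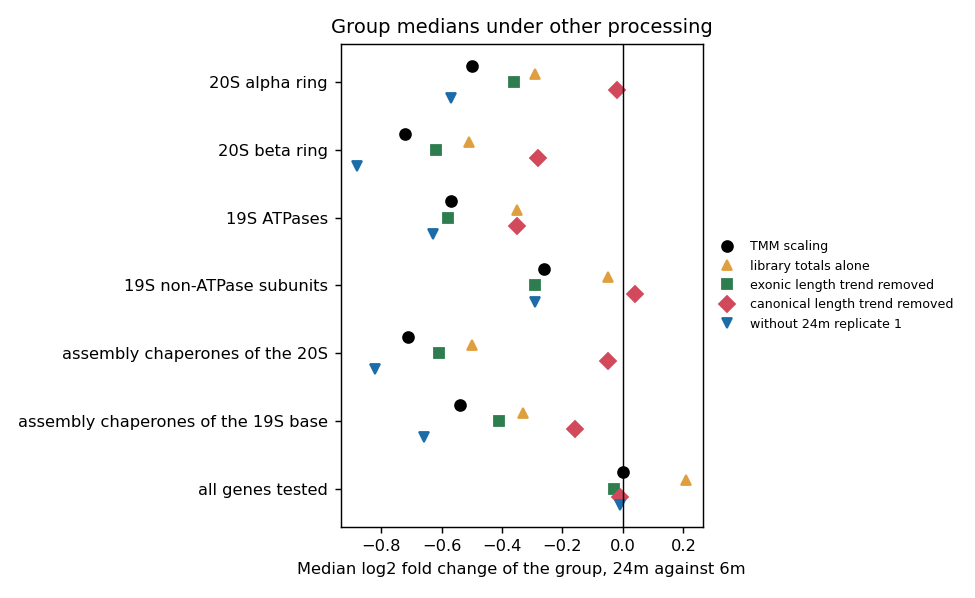
Median log2 fold change, 24m against 6m (x axis), of each role group and of all tested genes under 5 ways of processing. The medians of the beta ring and the ATPases stay below 0 under all 5, while the alpha ring and the non-ATPase subunits come to -0.02 and 0.04 with the canonical length trend removed.

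The 2 genes that share only the name pattern differed. Psmc3ip, a partner of recombinases, measured 5.41, 5.73, 5.57 and 5.74 CPM at 6m and 3.59, 3.23, 3.47 and 3.13 CPM at 24m, and was called lower (-0.74 ± 0.11, edgeR adjusted p = 0.000337). Psme3ip1, which binds Psme3, measured 38.0, 40.3, 40.1 and 44.4 CPM at 6m and 51.3, 39.6, 41.4 and 40.2 CPM at 24m. Its ages overlapped (0.08 ± 0.10, edgeR adjusted p = 0.505).

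Subunits and helpers whose symbols lie outside the pattern were lower in part. Of 11 tested, 2 were called lower and 1 higher (18.3% and 25.3% of tested genes), 7 were lower and 2 higher by adjusted p (29.9% and 32.7%), and the median was -0.35. Pomp, the chaperone that completes the core, fell by 0.87 ± 0.11 (edgeR adjusted p = 0.000157). Sem1, the small lid subunit, fell by 1.25 ± 0.11, and the ubiquitin receptor Adrm1 by 0.50 ± 0.09. Zfand5, an activator of the complete proteasome, was called higher, with overlapping ages (log2 fold change 0.75 ± 0.22), a call lost with the exonic or canonical length trend removed. Akirin2, which carries proteasomes into the nucleus, fell by 0.35 ± 0.08. The ubiquitin ligase Ube3c, which works at the proteasome, rose by 0.48 ± 0.09.

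Transcriptional regulators of proteasome genes were measured as well. Of 11 tested, 0 were called lower and 2 higher by edgeR, where 18.3% and 25.3% of tested genes were, with 0 lower also at an unadjusted p under 0.05 and by DESeq2 or limma-voom, and the median of 0.17 came to -0.01 and -0.04 with the exonic and canonical length trends removed. Nfe2l1 came to 0.05 ± 0.09 on the log2 scale (edgeR adjusted p = 0.665), and the segregase Vcp, which releases its protein from the endoplasmic reticulum, to 0.03 ± 0.08. Nfe2l2 rose by 0.46 ± 0.12 and its small partner Mafk by 0.59 ± 0.13, the latter called higher. Bach1, a repressor at the same elements, was called higher (2.30 ± 0.38), from 0.624 ± 0.160 CPM at 6m to 3.09 ± 1.33 CPM at 24m (SD).

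Ubiquitin genes and shuttle factors went in both directions, with 2 of 12 called lower and 4 higher, where 18.3% and 25.3% of tested genes were. Rps27a, which encodes ubiquitin fused to a ribosomal protein, fell by 1.08 ± 0.20. The polyubiquitin gene Ubb fell by 0.40 ± 0.14 with overlapping ages. The shuttles that bring ubiquitinated proteins to the 19S particle rose in 4 cases, Ubqln1 by 1.28 ± 0.15, Ubqln2 by 1.14 ± 0.25, Rad23b by 0.98 ± 0.15 and Ubqln4 by 0.65 ± 0.09.

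Annotated genes overlapped 35 of the 51 members, 29 of them on the other strand and 12 on the same strand, and 5 annotated processed pseudogenes bear the name of a member. Values of those members carry that uncertainty. The mitochondrially encoded genes took 5.26 to 6.52% of counts at 6m and 3.18 to 3.69% at 24m. The part of this difference, or of RNA quality, in the values above was not tested.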

How the data were processed

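Polyadenylated RNA from the brains of 4 mice of 6m and 4 of 24m was sequenced on an Illumina instrument. Per the labels and the study's methods, the authors trimmed reads with Trim Galore 0.4.11, aligned them to GRCm39 with HISAT2 2.1.0 and assigned them to genes of Ensembl release 103 with featureCounts, and the deposited values are whole-number counts per gene and library. The strand and multimapping settings are not given in the sources used here. The authors' own analysis dropped genes of 5 counts or fewer and used quantile normalization and DESeq2. Here, genes whose count exceeded 5 in 4 or more of the 8 libraries were tested in edgeR 4.0.16 under R 4.3.3 by quasi-likelihood, with TMM scaling and no term but age, p-values being adjusted by Benjamini-Hochberg over all 16730. The 4 libraries per age are separate animals. Log2 CPM used a prior count of 2. Pairs of subunits were compared by exact permutation over 70 assignments. Positions, lengths and promoters came from GENCODE release 39 of the same assembly, a later annotation in which 149 listed genes had no match. The fit was tested on simulated data.

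Values in every library are given for the catalytic and immunoproteasome subunits and, in each role, for the members with the highest and lowest log2 fold change. Members and lists were chosen with earlier results of these data known. Among the lists, Paaf1 and Fcrls were not tested here. Some list genes are counted but not reported singly here. Of the marker lists, endothelial genes gave 2 of 6 called lower and 1 higher, calls lost with the canonical length trend removed, and oligodendrocyte genes 1 of 6 higher and 0 lower (all tested genes 18.3% lower and 25.3% higher, oligodendrocyte genes lower 0 also at an unadjusted p under 0.05 and by DESeq2 1.42.0 or limma 3.58.1). Alternatives were other scaling, filters and tests, each library left out, the replicate number as a block, and removal of trends over length or GC content.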

Additional observations from a re-analysis of the deposited data

Results flagged for a closer look

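Among 102 sets of 4 libraries (each member at each age), 1 library stood far from the other 3 in 6 cases, and chance alone gives about 1 in 20. In 4 of them it was 24m replicate 1. Psmb1 measured 285 CPM there and 184 to 196 in the other aged libraries, Psmb3 184 against 102 to 115, Psmd10 19.4 against 15.8 to 16.3, and Psme3ip1 51.3 against 39.6 to 41.4. At 6m, Psmc6 measured 27.1 CPM in replicate 4 and 36.6 to 37.6 in the others, and Psma1 85.1 CPM in replicate 2 and 81.0 to 81.7 in the others. The library 24m replicate 1 was the deepest, and its depth as a part of these values was not tested.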

How the results depend on the processing

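The 23 members called lower became 18 to 28 with each library left out, and the count stayed within 1.5 times of 23 under other filters, RLE scaling, DESeq2, limma-voom and the removal of trends over exonic length or GC content. It was 8 with library totals alone, 8 with the canonical length trend removed and 41 by adjusted p alone, and the count called higher was 2 with the canonical length trend removed and 3 by adjusted p alone. The median of the 20S subunits was -0.38 with library totals alone and -0.22 with the canonical length trend removed, that of the 19S subunits -0.22 and -0.11 (-0.30 by DESeq2 after quantile normalization) and that of the assembly chaperones -0.38 and -0.10. The median of the 3 immunoproteasome subunits, 0.26, turned to -0.25 without 24m replicate 1 (-0.25 to 0.46 over each library left out) and to -0.02 after quantile normalization, which moved the median of all genes to -0.10. Members turned with the canonical length trend removed as follows: Psma1 0.26, Psma5 0.04, Psma6 0.19, Psma8 0.18, Psmb3 0.13, Psmb7 0.12, Psmc4 0.13, Psmd3 0.08, Psmd5 -0.10, Psmd6 0.37, Psmd7 0.12, Psmd8 0.04, Psmd12 0.14, Psme2b 0.17, Psme3 -0.09, Psme3ip1 -0.11, Psme4 -0.55 and Psmg1 0.12. With library totals alone Psmd3 turned to 0.05, Psmd6 to 0.02, Psmd12 to 0.02 and Psmf1 to 0.10. Psme4 turned to -0.23 with the exonic length trend removed, -0.17 with GC, -0.29 with both and -0.09 after quantile normalization, where Psmb9 was -0.02 and Psmd2 0.08. Psmd5 turned to -0.13 (length) and -0.18 (both), and Psme2b to 0.13 and 0.12. Over each library left out, Psmb8 ranged from -0.12 to 0.48 and Psmb9 from -0.25 to 0.46, and Psme3ip1 turned to -0.00, all lowest without 24m replicate 1. The cause of these changes was not tested. The replicate numbers did not pair the animals (correlations of deviations 0.271, 0.143, 0.0778 and -0.348). With the replicate block 23 members were called lower, and the pairs of subunits gave 0.97, 1.07 and -0.54 (exact sign-flip p = 0.125 each, the smallest 4 pairs allow). With length removed and the replicate block Psme4 was -0.23, Psmd5 -0.14 and Psme2b 0.13. The Psmb10 to Psmb7 difference turned to 0.13 (exact permutation p = 0.143) with the exonic length trend removed. With the canonical one removed it kept its direction (Psmb10 -0.49, Psmb7 0.12, not tested as a pair). Depth limits Psma8 and Psmb11, which had 6 to 29 counts per library.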
